A study of Mus musculus with 2 samples.

Results

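The miR-29 family of the mouse comprises 4 microRNA genes, Mir29a, Mir29b-1, Mir29b-2 and Mir29c, and all 4 were found among the 2202 microRNA genes counted in each of 2 small RNA libraries. They were chosen by name, through their identifiers in the GENCODE M21 annotation, by a rule that uses no measured value. Both libraries came from the gastrocnemius, the large calf muscle, of female mice aged 25 days, and the labels name no treatment. The strain was B6CASTF1/J, a first-generation cross between laboratory strain C57BL/6J and wild-derived strain CAST/EiJ. They formed a single group, labelled biological replicates 1 and 2. The females carry different numbers in the labels but share a donor identifier, so every spread given here lies between these 2 libraries and may or may not lie between animals. Without a second condition, the design allowed levels to be described and 1 library to be set against the other.

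A microRNA is cut from a hairpin in a longer transcript, and either arm of the hairpin, called 5p or 3p, can become the mature strand of about 22 bases. Bases 2 to 8 of the mature strand, the seed, pair with target messenger RNAs. The miR-29 family is best known for repressing messenger RNAs of collagens, elastin and other parts of the extracellular matrix. It has also been tied to the differentiation of muscle cells, and its loss to fibrosis.

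The 3p arms are shown first because they carry the family's shared seed and differ at few other bases. RefSeq (GRCm38.p6) lists 3 distinct sequences, written 5′ to 3′ with the seed in capitals.
miR-29a-3p, from Mir29a: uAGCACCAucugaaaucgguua
miR-29c-3p, from Mir29c: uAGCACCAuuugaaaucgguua
miR-29b-3p, from both Mir29b-1 and Mir29b-2: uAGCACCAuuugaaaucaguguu
Of 1738 mature mouse entries in the RefSeq table, 4 had the seed AGCACCA, and these were the 3p arms of the 4 family genes. Counted from the 5′ end, miR-29a-3p and miR-29c-3p differed by the single substitution C10U. Between miR-29c-3p and miR-29b-3p the substitutions were G18A, U21G and A22U over the 22 bases compared, and both began with the same 17 bases.

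The 5p arms are shown because they tell apart the pair of genes whose 3p arms are the same. Capitals again mark bases 2 to 8.
miR-29b-1-5p, from Mir29b-1: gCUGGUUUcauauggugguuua
miR-29b-2-5p, from Mir29b-2: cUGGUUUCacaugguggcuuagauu
miR-29a-5p, from Mir29a: aCUGAUUUcuuuugguguucag
miR-29c-5p, from Mir29c: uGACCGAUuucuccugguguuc
The 4 arms had 4 distinct seeds. The annotated arm of Mir29b-1 starts 1 base earlier than that of Mir29b-2. Set in register over 21 bases, miR-29b-2-5p and miR-29b-1-5p differed by C10U and C18U, counted from the first base of miR-29b-2-5p.

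The genes lie in a pair of clusters of the mm10 assembly. On the reverse strand of chromosome 6, Mir29b-1 (ENSMUSG00000065604.2) spans 31063023 to 31063093 and Mir29a (ENSMUSG00000065610.1) spans 31062660 to 31062747, with 275 bases between them. Mir29a overlapped no other annotated gene, and Mir29b-1 shared 2 bases with an exon of Gm27019, a long intergenic non-coding RNA gene on the same strand. On the forward strand of chromosome 1, Mir29b-2 (ENSMUSG00000065412.3) spans 195037040 to 195037120 and Mir29c (ENSMUSG00000065548.1) spans 195037547 to 195037634, with 426 bases between them. Both lie whole within an exon of 1 transcript of the non-coding gene A330023F24Rik. On the opposite strand both fall within an exon of 1 transcript of Cd46, which encodes a complement regulatory protein. No member had a count on its opposite strand in either library, and the count that ignores strand equalled the gene-strand count for each.

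Because reads that align to several places are tallied apart in the deposited tables and given to no gene, shared sequence bears on what each gene's count can hold. The hairpins of the miR-29b genes are printed with the longest stretch they share, 25 bases, in capitals.
Mir29b-1 hairpin: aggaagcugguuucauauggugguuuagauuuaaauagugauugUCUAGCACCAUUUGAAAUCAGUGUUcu
Mir29b-2 hairpin: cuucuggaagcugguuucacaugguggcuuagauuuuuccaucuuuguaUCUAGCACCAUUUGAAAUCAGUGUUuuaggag
The stretch contains the whole miR-29b-3p arm, so an unmodified read of that arm matches both genes. Searched against the hairpins of all 2202 genes, miR-29b-3p was found exactly in 2, and every other mature sequence of the family in 1. The 5p arms of Mir29b-1 and Mir29b-2 each matched only their own hairpin at up to 1 mismatch and both hairpins at 2. Mir29c shared 22 bases with Mir29b-1 and 19 with Mir29b-2, but these end within its 3p arm. Allowing 1 mismatch, miR-29a-3p and miR-29c-3p each matched the hairpins of both Mir29a and Mir29c. With any gene outside the family, the longest shared stretch was 13 bases, between Mir29b-2 and Mir6390. Hairpins other than annotated microRNA genes, and the genome itself, were not searched.

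**Figure D1:**
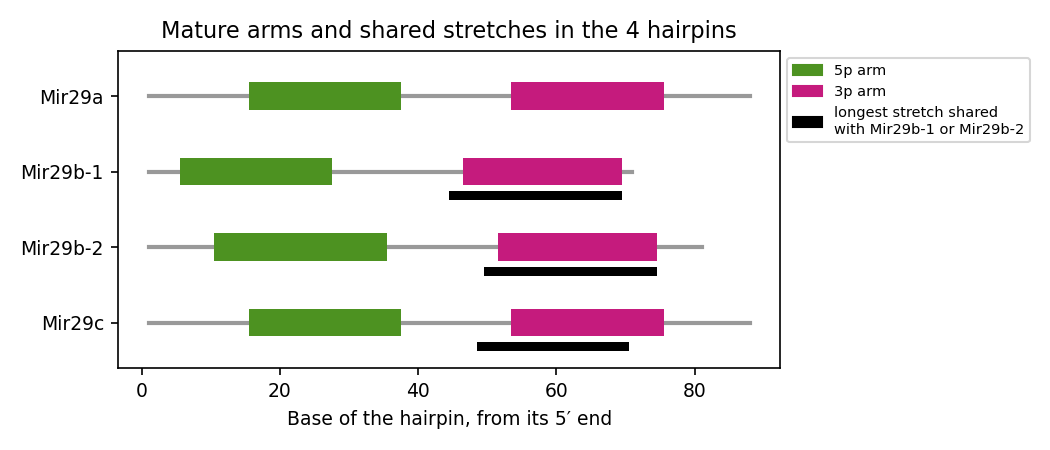
The 4 hairpins are drawn to scale, with the base number from the 5′ end on the horizontal axis, the 5p arm in green and the 3p arm in magenta. Black bars mark the longest stretch shared with Mir29b-1 or Mir29b-2: 25 bases covering the whole 3p arm in both miR-29b genes and 22 bases covering part of it in Mir29c. The 11 bases that Mir29a shares with them are not drawn.

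Replicate 1 held 1573213 counts on the strand of microRNA genes and replicate 2 held 5429127, so values of replicate 2 rest on 3.45 times as many counts. A level is the number of counts per 1000000 on all microRNA genes of its library (CPM). A count of 0 allows up to 3 counts, or 1.91 CPM in replicate 1 and 0.553 CPM in replicate 2. As mature strands are of near-equal length, levels of different genes are compared without scaling by length. Intervals are exact (Clopper-Pearson) 95% intervals and, as no molecular identifiers were used, cover counting error only. Striated muscle markers were present: the 6 listed genes summed to 36328 CPM in replicate 1 and 74954 CPM in replicate 2. Mir206 alone gave 34864 and 72482 CPM of these totals. Off that list, Mir133a-2 was at 7.63 and 2.03 CPM, Mir133a-1 at 12.1 and 22.8 CPM and Mir1a-1 at 14.0 and 15.8 CPM. In the exact binomial test described below, Mir133a-2 passed with more in replicate 1 and Mir133a-1 with more in replicate 2. Mir1a-1 did not pass. Reads that matched several loci are in none of these levels. Markers of smooth muscle and fibroblasts summed to 132934 and 63422 CPM, the 2 erythroid genes to 2703 and 587 CPM, and the 3 neuronal Mir124a genes, whose loci share a mature strand, were at 0 in both. In such bulk tissue, fewer cells of a type and less RNA per cell cannot be told apart.

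Mir29a had the highest level of the family genes in both libraries, followed by Mir29c. The miR-29b genes were far lower, in counts that leave out reads matching both of their loci. Mir29a had 3021 counts in replicate 1, or 1920 CPM (1852 to 1990). It had 6344 counts in replicate 2, or 1169 CPM (1140 to 1198). Its mean was 1544 ± 532 CPM (SD, n = 2), which placed it at rank 59 of 2202 genes. Mir29c had 863 counts, or 549 CPM (513 to 586), in replicate 1. Replicate 2 gave it 2112 counts, or 389 CPM (373 to 406). The mean of Mir29c was 469 ± 113 CPM at rank 100, and its higher library lay below the lower library of Mir29a. Both exceeded 130 CPM, the median of the 324 genes with at least 2 CPM in both libraries, called detected here.

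Mir29b-1 and Mir29b-2 lay near the low end of detected genes. Mir29b-1 had 18 counts in replicate 1, or 11.4 CPM (6.78 to 18.1), and 105 in replicate 2, or 19.3 CPM (15.8 to 23.4). Mir29b-2 had 17 counts in replicate 1, or 10.8 CPM (6.29 to 17.3), and 25 in replicate 2, or 4.60 CPM (2.98 to 6.80). Their means were 15.4 ± 5.59 CPM (SD, n = 2) and 7.71 ± 4.38 CPM, at ranks 246 and 275. The order of these neighbours was not settled in replicate 1, where their intervals overlapped, whereas in replicate 2 Mir29b-1 lay above Mir29b-2 with no overlap. All 4 members were detected, although Mir29b-2 stayed below 5 CPM in replicate 2. Counts belong to whole hairpins, so the arm that a read came from is not known.

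**Figure D2:**
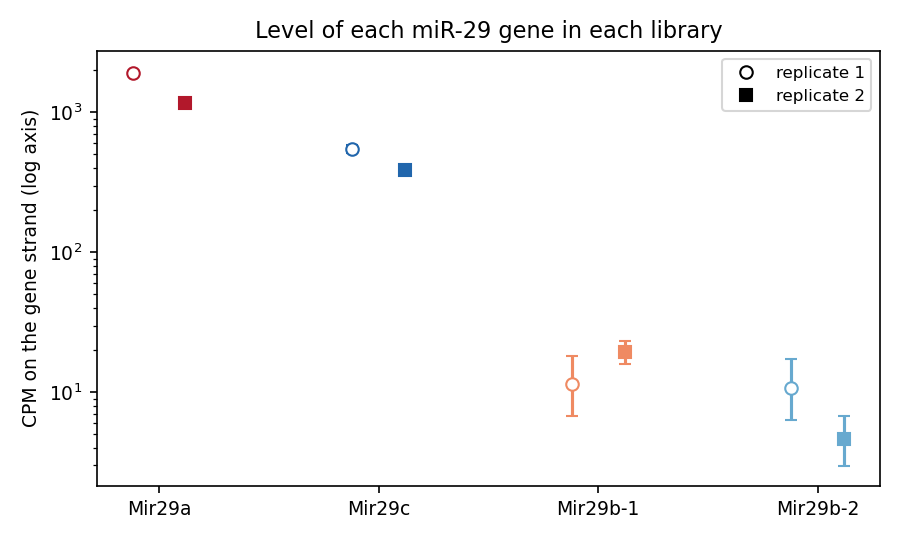
Each point is the level of a family gene in CPM (log axis) in replicate 1 (open circles) or replicate 2 (filled squares), and bars are exact 95% counting intervals. Mir29a and Mir29c lie between 389 and 1920 CPM and the miR-29b genes between 4.60 and 19.3 CPM, with Mir29b-1 higher and Mir29b-2 lower in replicate 2.

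Together the family held 0.249% of the microRNA-gene counts of replicate 1 (0.241 to 0.257) and 0.158% of replicate 2 (0.155 to 0.162). The mean share was 0.204% ± 0.0643 (SD, n = 2), and Mir29a made up 75.5% ± 2.26 of it. The miR-29b genes supplied 0.893% of the family's counts in replicate 1 (0.623 to 1.24) and 1.51% in replicate 2 (1.27 to 1.80). Reads of miR-29b-3p that matched both loci would be in neither figure. The tally of multiply aligned reads held 68.6% (replicate 1) and 69.7% (replicate 2) of everything sequenced, and does not say which microRNA they came from.

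Between clusters, the counts on the chromosome 6 genes were about 3-fold those on the chromosome 1 genes in both libraries. Reads of miR-29b-3p that matched both loci are in neither sum, so the ratio is nearly that of Mir29a to Mir29c. The ratio was 3.45 in replicate 1 (3.20 to 3.73) and 3.02 in replicate 2 (2.87 to 3.17). Mir29a exceeded Mir29c by 3.50 times in replicate 1 (3.24 to 3.78) and by 3.00 times in replicate 2 (2.86 to 3.16). The intervals of each ratio did not overlap between the libraries, and the difference was not tested further.

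Within each cluster, nearly all counts fell on the gene with a 3p arm of its own. Mir29b-1 held 18 of the 3039 counts of its cluster in replicate 1, 0.592% (0.351 to 0.934). In replicate 2 it held 105 of 6449, or 1.63% (1.33 to 1.97). This share, which does not depend on library scaling, was higher in replicate 2 (two-sided Fisher's exact test on the counts, adjusted p = 2.89e-05 over the 2 clusters). As with the intervals, the test takes reads as the only error and compares 2 single libraries. Mir29b-2 held 17 of the 880 counts of its cluster in replicate 1, 1.93% (1.13 to 3.08). In replicate 2 it held 25 of 2137, or 1.17% (0.758 to 1.72), and the difference did not pass the same exact test (adjusted p = 0.123). Thus Mir29a exceeded its neighbour 168-fold in replicate 1 (106 to 284) and 60.4-fold in replicate 2 (49.8 to 74.0). Mir29c exceeded Mir29b-2 50.8-fold (31.5 to 87.6) and 84.5-fold (57.1 to 131). Reads of miR-29b-3p that matched both loci are in neither miR-29b count. These folds and shares therefore compare assigned counts and not the full output of the genes, and their intervals do not cover the missing reads.

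The low levels of the miR-29b genes were set beside those of other genes whose mature sequence has several loci. RefSeq gave mature sequences for 1018 of the counted genes. By the RefSeq entries matched to each symbol, 904 of these had mature sequences found in no other annotated hairpin. Of the 904, 248 were detected, with a median of 179 CPM. The split is not free of error: Mirlet7a-2 and Mir1843a fell in this set. Below they are paired with Mirlet7a-1 and Mir1843b as sharing a mature sequence, and other such genes are possible. For 114 genes a mature sequence was also held by another gene, and the 41 detected among them had a median of 47.5 CPM. Mir29a and Mir29c belonged to the first set, above 78.6% and 64.9% of its detected genes. Mir29b-1 and Mir29b-2 belonged to the second set and were low in it too, above 24.4% and 17.1% of its detected genes. When 1 mismatch was allowed, all 4 family genes fell into the second set, whose median rose to 184 CPM, against 133 CPM for the first, so the order of the sets turned. No test was made, since genes of a family are not independent.

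**Figure D3:**
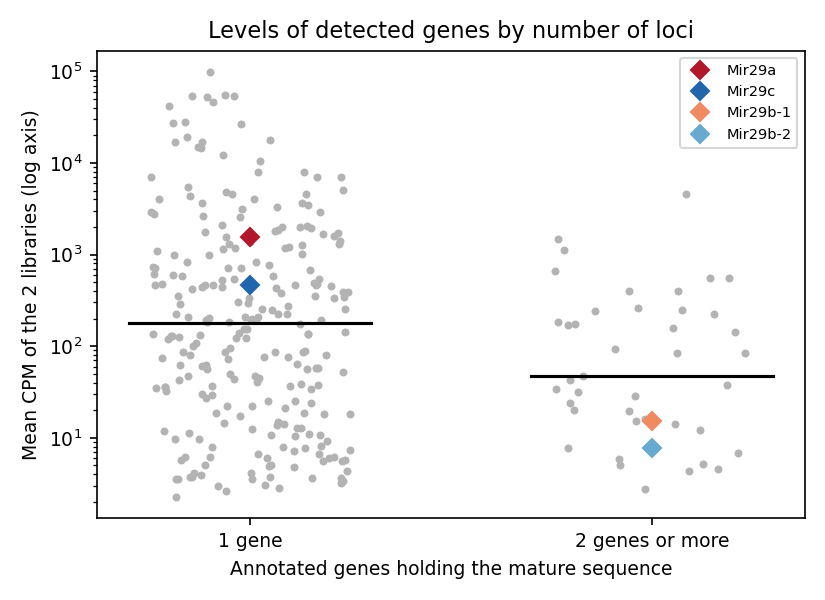
Each grey point is the mean CPM (log axis) of a detected gene, and black lines are medians (179 and 47.5 CPM). Genes are split by whether the RefSeq mature sequences matched to their symbol occur exactly in 1 annotated hairpin or in 2 or more. Mir29a and Mir29c (diamonds) lie above the median of the first set and the miR-29b genes below that of the second.

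With library totals, Mir29a, Mir29c and Mir29b-2 were higher in replicate 1, and Mir29b-1 had a ratio of the opposite sign that did not pass the test. The counts of each gene in both libraries entered a two-sided exact binomial test, adjusted by the Benjamini-Hochberg method over all 364 genes with at least 10 counts. The test takes reads as the only error and compares these 2 libraries, not conditions. Under it 45.3% of all genes tested passed, 30.2% higher in replicate 1 and 15.1% higher in replicate 2, so that the 3 of 4 family genes that passed are a description of few genes and not a mark of the family. The split of all genes depended on scaling: with library totals, 110 genes passed as higher in replicate 1 and 55 as higher in replicate 2. It was 70 and 104 with TMM, and 65 and 107 with DESeq2 size factors, which raised every log2 ratio by 0.18 and 0.20.

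Mir29a had a log2 ratio of replicate 2 over replicate 1 of -0.72 (95% interval -0.78 to -0.65), 1.64-fold higher in replicate 1 (exact binomial test, adjusted p = 1.33e-103). For Mir29c the log2 ratio was -0.50 (-0.61 to -0.38), 1.41-fold higher in replicate 1 (exact binomial test, adjusted p = 6.91e-16). The small p-values follow from the depth. By edgeR's biological coefficient of variation, 25.8%, a single gene's log2 ratio between these libraries has an SD of 0.53. That SD leaves out counting error, which adds more spread at low counts. With library totals, Mir29a lay 1.36 such SDs from 0, and 24.7% of the genes tested had larger ratios in either direction. This share is over genes of every level, most of them lower than Mir29a, and counting error widens ratios at low counts. No share was taken among genes at the level of Mir29a. The SD itself came from TMM scaling, with which the log2 ratio of Mir29a was -0.54, little beyond that SD. Mir29c lay within that SD. Against the median of all genes tested, -0.15, Mir29a was lower by 0.57 on the log2 scale and Mir29c by 0.35.

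The miR-29b genes, which encode the same 3p strand, had ratios of opposite sign at low counts. Mir29b-2 had a log2 ratio of -1.24 (-2.18 to -0.25), 2.37-fold higher in replicate 1 (exact binomial test, adjusted p = 0.0211). With TMM scaling its adjusted p was 0.0610 and with DESeq2 size factors 0.0626, above the threshold of 0.05. Mir29b-1 had a log2 ratio of 0.72 (0.03 to 1.57) that missed the threshold (adjusted p = 0.0823), but passed it with TMM (adjusted p = 0.0196) and DESeq2 size factors (0.0152). Thus scaling decided which of these genes passed alone, and neither sign turned.

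**Figure D4:**
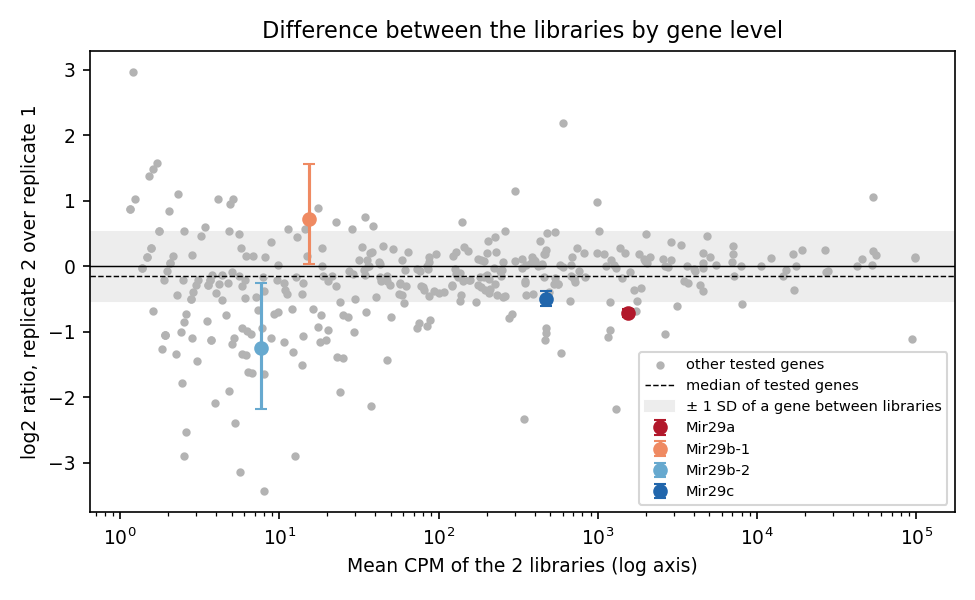
The log2 ratio of replicate 2 over replicate 1, with library totals, is plotted against mean CPM (log axis) for 364 genes. Family genes have exact 95% intervals, and a dashed line marks the median of -0.15. A grey band of ± 0.53 marks the SD of a gene between libraries, which came from TMM scaling and leaves out counting error. Mir29a and Mir29c lie close together below the median, and the miR-29b genes lie on opposite sides of 0 with wide intervals.

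A direct comparison of the miR-29b genes does not depend on scaling. Mir29b-1 over Mir29b-2 was 1.06 in replicate 1 (0.515 to 2.19) and 4.20 in replicate 2 (2.69 to 6.78), and the log2 ratios of the genes differed by 1.97. The conditional odds ratio of the counts was 3.93 (exact 95% interval 1.65 to 9.41). This comparison was chosen after the counts were seen, and was therefore made for 22 gene pairs. By the matched RefSeq entries, the genes of each pair alone share a mature sequence, and each gene had at least 10 counts. Genes without such an entry were not paired, among them Mir133a-1 and Mir133a-2, with log2 ratios of 0.89 and -1.91. Any ranking here holds within the 22 pairs only. The miR-29b difference passed (two-sided Fisher's exact test, adjusted p = 0.00933 over the 22 pairs), as did 4 pairs in all, 18.2%. This p too covers counting error alone, on 18 and 105 counts against 17 and 25. The SD of a single gene's log2 ratio between the libraries was 0.53 without counting error, which is large at such counts. The SD of a difference between genes was not estimated. The miR-29b difference was the largest of the 22, whose median was 0.32. The next was 1.54, between Mir129-1, on 1 and 10 counts, and Mir129-2, on 8 and 20. Of the 22 pairs, 8 had genes with opposite signs. A difference of this kind is counted on the reads that tell the loci apart, which for Mir29b-1 and Mir29b-2 exclude the unmodified 3p strand.

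**Figure D5:**
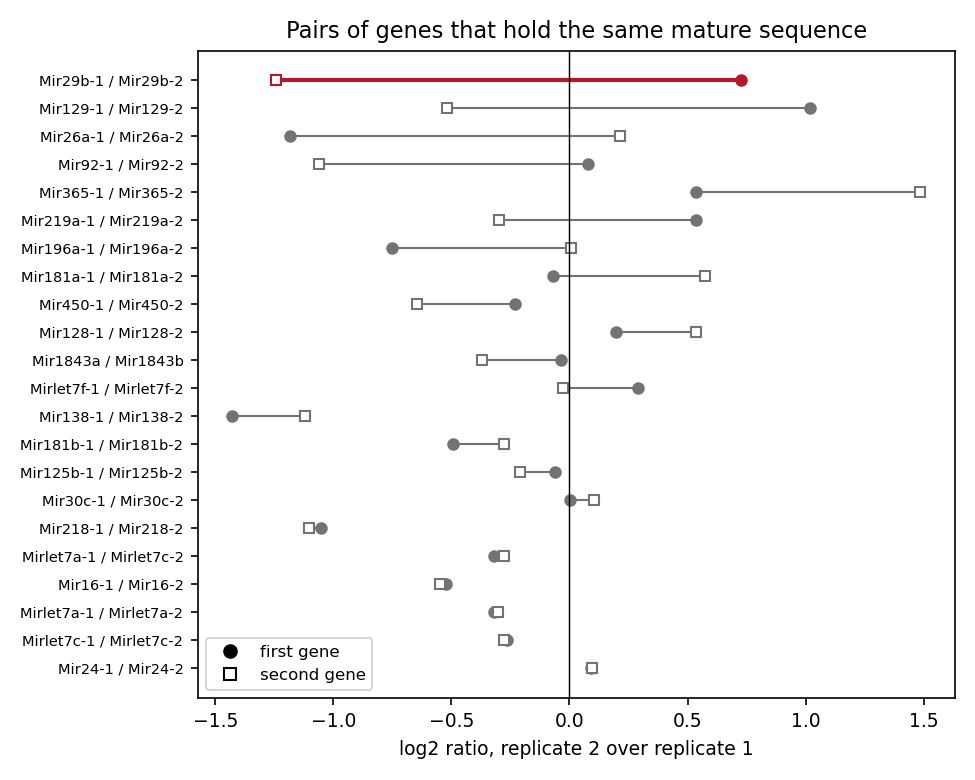
Each line joins the log2 ratios of replicate 2 over replicate 1 of a pair of genes that share a mature sequence, ordered by the size of their difference. Among the 22 pairs formed from matched RefSeq entries, Mir29b-1 and Mir29b-2 (red) have the widest gap, 1.97, and Mir24-1 and Mir24-2 the narrowest.

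Genes with levels most like those of the family were found by distance in log2(CPM + 1) over the 2 libraries, which with so few libraries describes level more than pattern. Nearest to Mir29a were Mir93 (2134 and 1336 CPM), Mir140, a cartilage-enriched microRNA, and Mir652. Nearest to Mir29c were Mir185 (561 and 428 CPM), Mir107 and Mir221. Mir547, Mir133a-1 and Mir653 were nearest to Mir29b-1. Nearest to Mir29b-2 were Mir672, Mir106a and Mir1199.

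Lists of other microRNAs tied to matrix and to muscle went both ways, with 7 of 11 and 10 of 18 tested genes passing beside 45.3% of all genes, and neither list was tested against that share. Of the 12 listed matrix and fibrosis microRNAs, 11 had enough counts for the test: 6 passed with more in replicate 1 and 1 (Mir214) with more in replicate 2, at a median log2 ratio of -0.55 beside -0.15 over all genes tested. With TMM or DESeq2 scaling, 5 passed with more in replicate 1 and 3 with more in replicate 2. The most abundant was Mir143, of smooth muscle and fibroblasts, at 127590 and 59272 CPM in replicates 1 and 2. Mir200b, an epithelial microRNA, had the largest ratio of that list, on 16 and 6 counts. Of 18 myogenic microRNAs, 6 passed with more in replicate 2 and 4 with more in replicate 1, at a median of 0.09 (8 and 3 with TMM, 8 and 2 with DESeq2 size factors). Mir206, specific to skeletal muscle, was at 34864 and 72482 CPM in replicates 1 and 2, and Mir208b of slow fibres at 219 and 994 CPM.

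Mir29a, Mir29c and, with library totals, Mir29b-2 were higher in replicate 1, the library with the lower striated muscle total and with higher totals of several other marker lists. The striated muscle total was mostly Mir206, and the smooth muscle and fibroblast total mostly Mir143. Immune markers summed to 2127 CPM in replicate 1 and 1423 CPM in replicate 2, the glial Mir338 was at 1581 and 749 CPM, and epithelial markers summed to 421 and 230 CPM. All 3 immune, 3 epithelial and 2 erythroid markers and Mir338 passed with more in replicate 1, except that 2 of the 3 immune markers did with TMM or DESeq2 size factors. The endothelial Mir126a passed with more in replicate 2, at 93328 and 103367 CPM. Of the 6 muscle markers, 4 were higher in replicate 2, and 1 was higher in replicate 1 with library totals but did not pass with TMM or DESeq2 size factors. Of the 6 smooth muscle and fibroblast markers, 5 had enough counts for the test: 3 passed with more in replicate 1, and Mir214 passed with more in replicate 2. No marker of either of these lists was at 0 in both libraries. The part of any marker list in the differences of the family genes was not tested.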

How the data were processed

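Small RNA of 2 gastrocnemius libraries was sequenced, with a size range below 30 per the labels. The authors deposited raw counts, 1 table per library, for reads on either strand, on the gene strand and on the opposite strand, and 4 tally rows for reads given to no gene. These columns have no header and were identified from the values. Assembly mm10 and annotation GENCODE M21 are per the deposited readme files; aligner and counting tool were not given in the sources used here. Gene-strand counts were used, and CPM are over all gene rows. Unaligned reads (7.95% and 6.08% of reads), reads outside genes (2.14% and 1.71%) and reads aligned to several places (69.1% ± 0.794, n = 2) stayed out of totals. All 2202 identifiers matched the annotation; mature sequences are from RefSeq and matched by symbol.

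Genes were compared with exact binomial tests (minimum 10 counts, threshold 0.05, offset 0.5 counts), and gene pairs and clusters with Fisher's exact test. The binomial test was also run on simulated counts with counting error only, which cannot show how it behaves with spread between libraries. Dispersion and scaling came from edgeR 4.0.16 and DESeq2 1.42.0 in R 4.3.3, the rest from Python 3.11.15 with scipy 1.17.1, pandas 2.3.3, numpy 2.4.6 and matplotlib 3.10.9. Named genes were the members, the 3 genes nearest each, the most abundant and most changed gene of each list, and the markers. Mir214, Mir6390, Mir1a-1, Mirlet7a-1, Mirlet7a-2 and the Mir133a, Mir129, Mir1843 and Mir24 genes were named after their values were seen. Members and lists were chosen with earlier results of these data known. Alternatives were scaling, minimum counts, pseudocounts, strand column, denominator, mismatches and leaving out each replicate.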

Additional observations from a re-analysis of the deposited data

Results flagged for a closer look

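Multiply aligned reads, which enter no gene's count, were 68.6% (replicate 1) and 69.7% (replicate 2) of everything sequenced. They stand out as the largest share of data not used above. Any unmodified miR-29b-3p read would align to both miR-29b loci, and how many of these reads are miR-29b-3p was not tested, since the tally names no microRNA.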

How the results depend on the processing

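Over all aligned reads instead of microRNA-gene counts, the mean levels fell to 363 CPM for Mir29a, 110 CPM for Mir29c, 3.65 CPM for Mir29b-1 and 1.81 CPM for Mir29b-2, and the family share to 0.0479%, by the larger denominator alone. The column that ignores strand has smaller totals and gave Mir29c 612 CPM. Leaving out either replicate gave 1169 to 1920 CPM for Mir29a, 389 to 549 for Mir29c, 11.4 to 19.3 for Mir29b-1 and 4.60 to 10.8 for Mir29b-2. The family share then ranged from 0.158% to 0.249%, the Mir29b-1 share of its cluster from 0.592% to 1.63%, and that of Mir29b-2 from 1.17% to 1.93%. With a minimum of 5 CPM, 3 members were detected.

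The log2 ratio of Mir29b-1 was 0.90 with TMM and 0.93 with DESeq2 size factors, both past the test, and that of Mir29b-2 was -1.07 and -1.04, neither past it. With a pseudocount of 5 CPM, which shrinks low levels, they were 0.57 and -0.72. Over its alternatives the exact binomial adjusted p of Mir29b-1 ranged from 0.0152 to 0.142 and that of Mir29b-2 from 0.0211 to 0.0626. A minimum of 50 counts gives no value for Mir29b-2. The ratios of Mir29a (-0.72 to -0.51) and Mir29c (-0.50 to -0.29) kept sign and call under each alternative. Counts of all genes called ranged from 152 to 174. The median of detected genes with several loci was 184 CPM when 1 mismatch was allowed, and 43.3 to 69.3 CPM when either replicate was left out. With a minimum of 20 counts or the column that ignores strand, both chosen after seeing the data, the miR-29b pair had an adjusted p of 0.00763 (Fisher's exact test over 18 pairs). No paired analysis was possible because both libraries belong to 1 group.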
